A study of Mus musculus with 33 samples.

Results

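The MHC class II genes examined here were the 10 genes H2-Aa, H2-Ab1, H2-Eb1, Cd74, Ciita, H2-DMa, H2-DMb1, H2-DMb2, H2-Oa and H2-Ob. They were chosen by name out of the 24421 genes of the count tables. The choice used no measured value as a criterion, but was made with earlier results of these data known. All 10 were present in the tables and all 10 passed the filter on low counts in every comparison. They were measured by bulk RNA sequencing in 33 samples of sorted Kupffer cells (KCs, the resident macrophages of the liver) and alveolar macrophages (AMs, the resident macrophages of the lung airspace). The study deleted Zeb2, a transcription factor gene, in these cells to learn what they lose without it. Control cells, called CRE-, came from Zeb2fl/fl mice, which carry the floxed alleles and no CRE, and gave 6 KC samples and 5 AM samples. Clec4f-crexZeb2fl/fl mice gave KCs that carried Tim4 on their surface (Tim4+, n = 6) or lacked it (Tim4-, n = 6), and Itgax-crexZeb2fl/fl mice gave AMs without (CD11b-, n = 5) or with CD11b (CD11b+, n = 5). Mice were on a C57Bl/6 background, of both sexes and 6 to 8 weeks old, as given for the study as a whole in its methods.

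Several features limit these groups as models. Clec4f-cre also marks a minor population of B cells, and Itgax-cre acts in other cells that express CD11c. By the study's account the CRE+ cells include some that kept a copy of Zeb2, so each CRE+ sample may mix cells with and without the gene. The floxed allele leaves a shortened Zeb2 mRNA, so reads summed over the gene do not check the deletion. Levels are given as CPM, counts per 1000000 gene reads of the library after scaling by TMM factors. Zeb2 had mean levels of 282, 174 and 169 CPM in CRE-, Tim4+ and Tim4- KCs. In CRE-, CD11b- and CD11b+ AMs its means were 195, 105 and 62.5 CPM. The libraries held 9837240 to 24332306 gene reads (median 20683608). The 6 KC marker genes summed to 23000–24900 CPM in CRE- KCs and 66–87.6 CPM in CRE- AMs, and the 8 AM marker genes to 324–1160 and 20000–30500 CPM. In all 3 KC groups, the samples numbered 5 and 6 had no Xist reads and 64.6 to 75.4 CPM of the Y-linked Ddx3y, whereas the other 27 samples, all AMs among them, had Xist reads and at most 0.131 CPM of Ddx3y. In sorted bulk samples, fewer cells of a type and less RNA per cell cannot be told apart. Samples of a group were not stated to be separate mice, so p-values measure the spread between these samples.

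MHC class II molecules present peptides from the endosomes to CD4+ T cells. H2-Aa and H2-Ab1 encode the alpha and beta chains of I-A and H2-Eb1 the beta chain of I-E, whose alpha chain is not made in C57BL/6 mice. Cd74, the invariant chain, fills the peptide groove during transport, H2-M (H2-DMa with H2-DMb1 or H2-DMb2) removes its remnant and helps peptides to bind, and H2-O (H2-Oa with H2-Ob) inhibits H2-M and is best known from B cells. Ciita is the coactivator that is recruited to a conserved promoter module, with an X box and a Y box, in front of these genes, and interferon gamma induces it in macrophages.

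Of the 10 members, 8 lie together on chromosome 17 of GRCm38 between 34092340 (H2-Oa) and 34316674 (H2-Eb1), and Ciita lies on chromosome 16 from 10480059 to 10528418. RefSeq promoter windows (GRCm38.p6, 250 bases before to 50 after the annotated start) were at hand for 7 members and gave 8 windows. The Y box was searched as TGATTGG on both strands. It stood on the strand of the gene in 6 members, 45 to 92 bases before the start, and AAC, letters that occur within X boxes, stood 23 to 26 bases ahead of it. Among all 32851 windows, 7.817% held TGATTGG on either strand and 1.443% held AAC followed by 15 to 30 bases and TGATTGG. Neither window of H2-DMa held these letters. The following 71-base stretches show the arrangement that the members share, with both elements in capitals, each written 5′ to 3′ on the gene's strand. Where H2-Oa had 2 AAC in range, the farther one is in capitals. The stretches lie at chr17:34092284-34092354 (H2-Oa, plus strand), chr17:34238796-34238866 (H2-Ob, plus), chr17:34287853-34287923 (H2-Aa, minus), chr17:34305756-34305826 (H2-Eb1, plus), chr17:34153078-34153148 (H2-DMb1, plus) and chr17:34145107-34145177 (H2-DMb2, plus).
H2-Oa: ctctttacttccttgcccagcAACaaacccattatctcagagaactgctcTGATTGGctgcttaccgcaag
H2-Ob: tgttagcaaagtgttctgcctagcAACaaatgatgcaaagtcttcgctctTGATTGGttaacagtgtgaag
H2-Aa: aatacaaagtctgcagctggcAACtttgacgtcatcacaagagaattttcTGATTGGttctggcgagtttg
H2-Eb1: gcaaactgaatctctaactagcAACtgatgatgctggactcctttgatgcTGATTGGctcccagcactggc
H2-DMb1: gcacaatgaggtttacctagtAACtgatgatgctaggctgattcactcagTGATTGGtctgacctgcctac
H2-DMb2: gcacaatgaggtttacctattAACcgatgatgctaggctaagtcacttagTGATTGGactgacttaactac

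Expression per length differed widely between the members. On the RPKM scale (CPM per kilobase of exon), CRE- KCs had a mean level of 3951 ± 1632 (SD, n = 6) for Cd74, 979 ± 419 for H2-Ab1, 488 ± 220 for H2-Eb1 and 466 ± 173 for H2-Aa. The H2-M chains followed, with 133 ± 25.6 RPKM for H2-DMb1 and 125 ± 16.2 RPKM for H2-DMa, whereas H2-DMb2 had 3.14 ± 0.907, Ciita 3.52 ± 1.44, H2-Ob 1.11 ± 0.371 and H2-Oa 0.701 ± 0.21 RPKM. CRE- AMs were ordered otherwise, since H2-DMa had the highest level at 141 ± 10.5 RPKM (SD, n = 5), above Cd74 at 106 ± 51.8, H2-DMb1 at 44.1 ± 3.75 and H2-Ab1 at 15.1 ± 5.38 RPKM. Reads on the members made up 0.786 to 2.09% of gene reads in CRE- KCs, 1.06 to 2.05% in Tim4+ KCs and 2.05 to 3.18% in Tim4- KCs. In the 3 AM groups this share lay between 0.0497 and 0.105%.

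**Figure D1:**
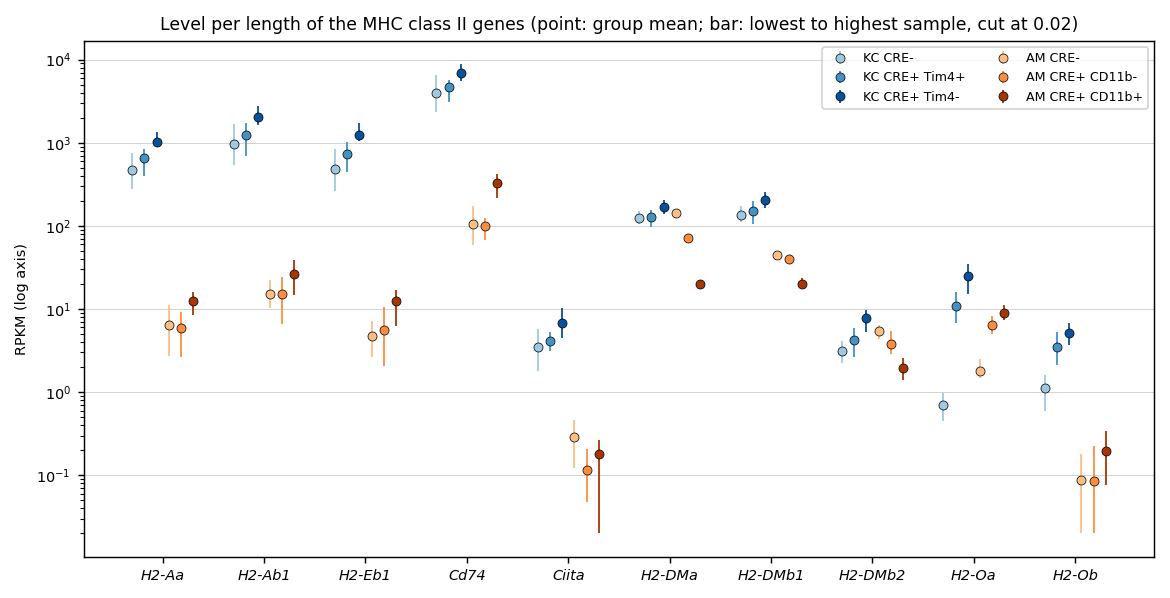
Level per length (RPKM, log axis) of the 10 members in the 6 groups; points are group means and bars run from the lowest to the highest sample, cut at 0.02 where a sample had no reads. Cd74 led in KCs with 3951 RPKM in CRE- cells, whereas H2-DMa led in CRE- AMs with 141 RPKM.

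A gene was called where the adjusted p was under 0.05 and the log2 fold change exceeded 1 in either direction. Tim4+ KCs had 2 of the 10 members called higher than CRE- KCs and none lower (1.94% of 12500 genes were called higher and 0.376% lower). In Tim4- KCs against the same CRE- KCs, 6 members were called higher and none lower (3.43% and 5.39% of all genes). Tim4- KCs had 1 member called higher than Tim4+ KCs and none lower (0.44% and 5.01%). The median log2 fold change of the members was 0.37, 1.06 and 0.68 in these comparisons, beside -0.0031, -0.031 and 0.0084 over all genes tested.

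In the lung, CD11b- AMs had 1 member called higher and none lower than CRE- AMs (3.98% of 11573 genes higher, 2.51% lower). CD11b+ AMs had 3 members called higher and 3 lower than the same CRE- AMs (9.57% and 5.68%), and 3 higher and 2 lower than CD11b- AMs (6.85% and 3.3%). The members' medians were -0.12, 0.88 and 0.70, beside 0.0027, -0.0052 and 0.022 over all genes. Between the controls, CRE- KCs had 7 members called higher and 1 lower than CRE- AMs (20.9% and 12.4% of 12145 genes), with a median of 3.66 beside 0.029. Comparisons with a shared control group are not independent of each other.

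**Figure D2:**
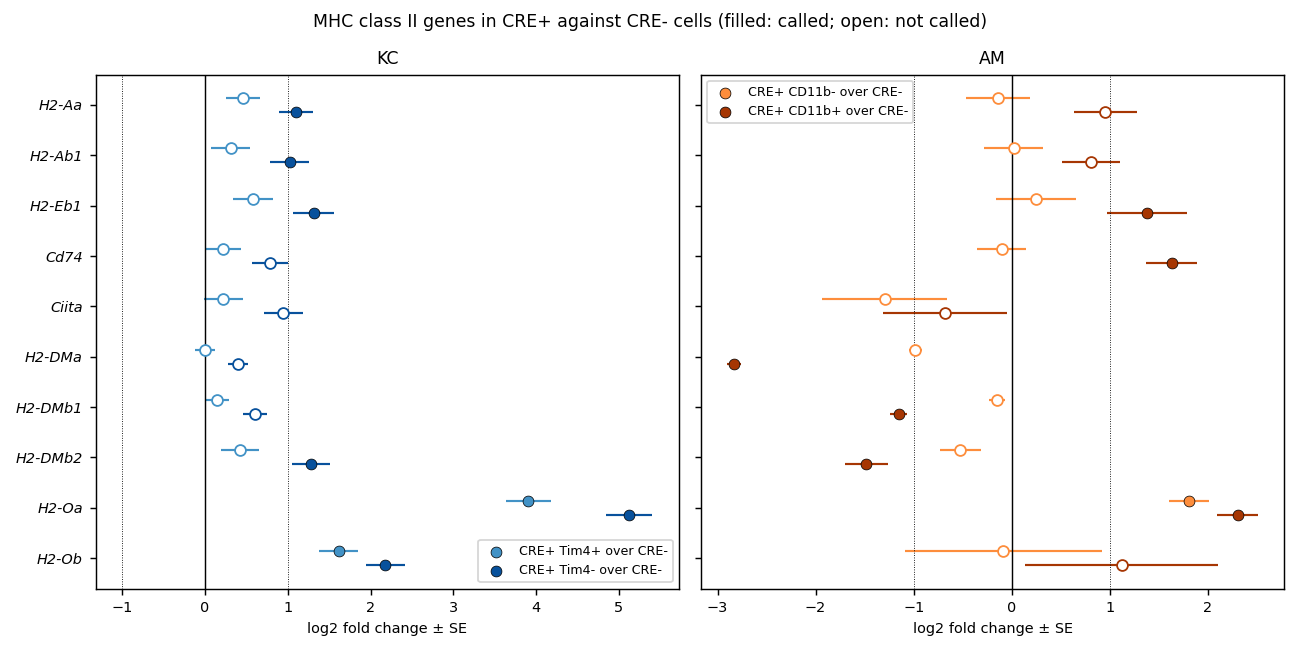
Log2 fold change of the 10 members (edgeR, bars ± SE) in KCs (left, n = 6 per group) and AMs (right, n = 5 per group) of CRE+ mice over CRE- mice of the same tissue; filled points were called, open ones not, and dotted lines mark the fold change cut-off of 1. H2-Oa was called higher in all 4 comparisons, and H2-DMa went from 0.40 in Tim4- KCs to -2.83 in CD11b+ AMs.

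H2-Oa, the alpha chain of H2-O, had the largest fold change of the members in each CRE+ group against its controls, apart from CD11b+ AMs, where H2-DMa changed by more. CRE- KCs had 0.64 to 1.39 CPM (median 0.988, 14 to 28 reads), Tim4+ KCs 9.52 to 22.3 CPM (median 15.1) and Tim4- KCs 21.6 to 49.2 CPM (median 36.5). Every CRE+ KC sample lay far above every CRE- KC sample. H2-Oa rose by a log2 fold change of 3.91 (SE 0.27) in Tim4+ KCs (edgeR adjusted p = 4.68e-09) and of 5.12 (SE 0.28) in Tim4- KCs (edgeR adjusted p = 8.9e-11). Tim4- KCs were also above Tim4+ KCs, by 1.22 (SE 0.23, edgeR adjusted p = 0.00112), though one Tim4- sample fell within the Tim4+ range.

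AMs showed the same direction for H2-Oa from a higher start. The 5 CRE- AM samples had 2.2, 2.74, 2.26, 2.07 and 3.48 CPM, the CD11b- AMs 7.3, 7.07, 8.57, 11.7 and 10.1 CPM, and the CD11b+ AMs 11.0, 11.6, 14.8, 15.8 and 10.4 CPM. Neither CRE+ AM group overlapped the CRE- AMs. The log2 fold change over CRE- AMs was 1.81 (SE 0.21) in CD11b- AMs (edgeR adjusted p = 2.11e-06) and 2.30 (SE 0.21) in CD11b+ AMs (edgeR adjusted p = 1.85e-08). CD11b+ and CD11b- AMs overlapped and were not called different (log2 fold change 0.49, edgeR adjusted p = 0.0525). CRE- KCs had less H2-Oa than CRE- AMs, with a log2 fold change of -1.34 (SE 0.34, edgeR adjusted p = 0.00315) and no overlap. Of the exon length of H2-Oa, 22.8% overlaps the antisense gene BC051537, and whether the counting used strand is not given in the sources used here. BC051537 itself had at most 0.651 CPM in any sample.

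H2-Ob, the beta chain that pairs with H2-Oa, rose in both CRE+ KC groups, and the difference of its change between the tissues did not pass (1.41, SE 0.71, edgeR adjusted p = 0.178). CRE- KCs had 3.2 to 8.59 CPM (median 6.05), Tim4+ KCs 11.5 to 28.4 CPM (median 18.5) and Tim4- KCs 19.8 to 36 CPM (median 26.5). Neither CRE+ KC group overlapped the controls, with log2 fold changes of 1.62 (SE 0.23, edgeR adjusted p = 0.000111) in Tim4+ and 2.18 (SE 0.24, edgeR adjusted p = 9.38e-07) in Tim4- KCs. AMs hardly expressed the gene. CRE- AMs had 0, 0.832, 0.97, 0.578 and 0 CPM, CD11b- AMs 0.0507, 0, 0.281, 0.752 and 1.19 CPM, and CD11b+ AMs 1.83, 0.92, 0.525, 1.59 and 0.409 CPM. A sample with 0 reads allows up to 3 reads, or 0.125 to 0.154 CPM in the 3 samples concerned, a limit for counting error alone. The 3 AM groups overlapped, and none of their differences passed (the largest log2 fold change was 1.21, SE 0.99, edgeR adjusted p = 0.372). CRE- KCs were above CRE- AMs by 3.66 (SE 0.72, edgeR adjusted p = 0.000452).

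Because H2-O is best known from B cells, B-cell markers were set beside these values. The 9 B-cell genes found of the 10 listed (Ighm was not among the gene symbols) summed to 91.6–191 CPM in CRE- KCs, 54.6–102 CPM in Tim4+ KCs and 68.6–143 CPM in Tim4- KCs. These sums were not higher in the CRE+ groups than in the controls. Cd22 alone had 40.1 to 101 CPM in CRE- KCs and was lower in Tim4- KCs. The sums therefore do not show how the other B-cell genes moved. In AMs the sum was 140–171 CPM in CRE-, 68.4–104 in CD11b- and 50–61.8 CPM in CD11b+ cells, and Pax5, a defining B-cell factor, had no read in any AM sample. Most of the AM sum came from Cd22 (134 to 161 CPM in CRE- AMs). Of 8 B-cell genes tested in the liver, Cd79b was called lower in Tim4+ KCs (log2 fold change -1.03) and Cd22 lower in Tim4- KCs (-1.78), and none was called higher than in CRE- KCs. Cd79b was higher in Tim4- than in Tim4+ KCs (1.37). The median log2 fold change of these 8 genes over CRE- KCs was -0.14 in Tim4+ and 0.56 in Tim4- KCs. Of 4 B-cell genes tested in AMs, Cd79a was called lower in CD11b- (-1.03) and Cd22 lower in CD11b+ AMs (-1.66) than in CRE- AMs, whereas Cd79a (1.54) and Cd79b (1.197) were called higher in CD11b+ than in CD11b- AMs. The part of B cells in the H2-O values was not tested. Ms4a1, which encodes the B-cell antigen CD20, was outside that list and was added after its values were seen. The study itself used Ms4a1 among the genes by which it identified Zeb2-/- macrophages. It had mean levels of 4.999, 80.8 and 143 CPM in CRE-, Tim4+ and Tim4- KCs and of 3.22, 23.9 and 67.2 CPM in CRE-, CD11b- and CD11b+ AMs.

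**Figure D3:**
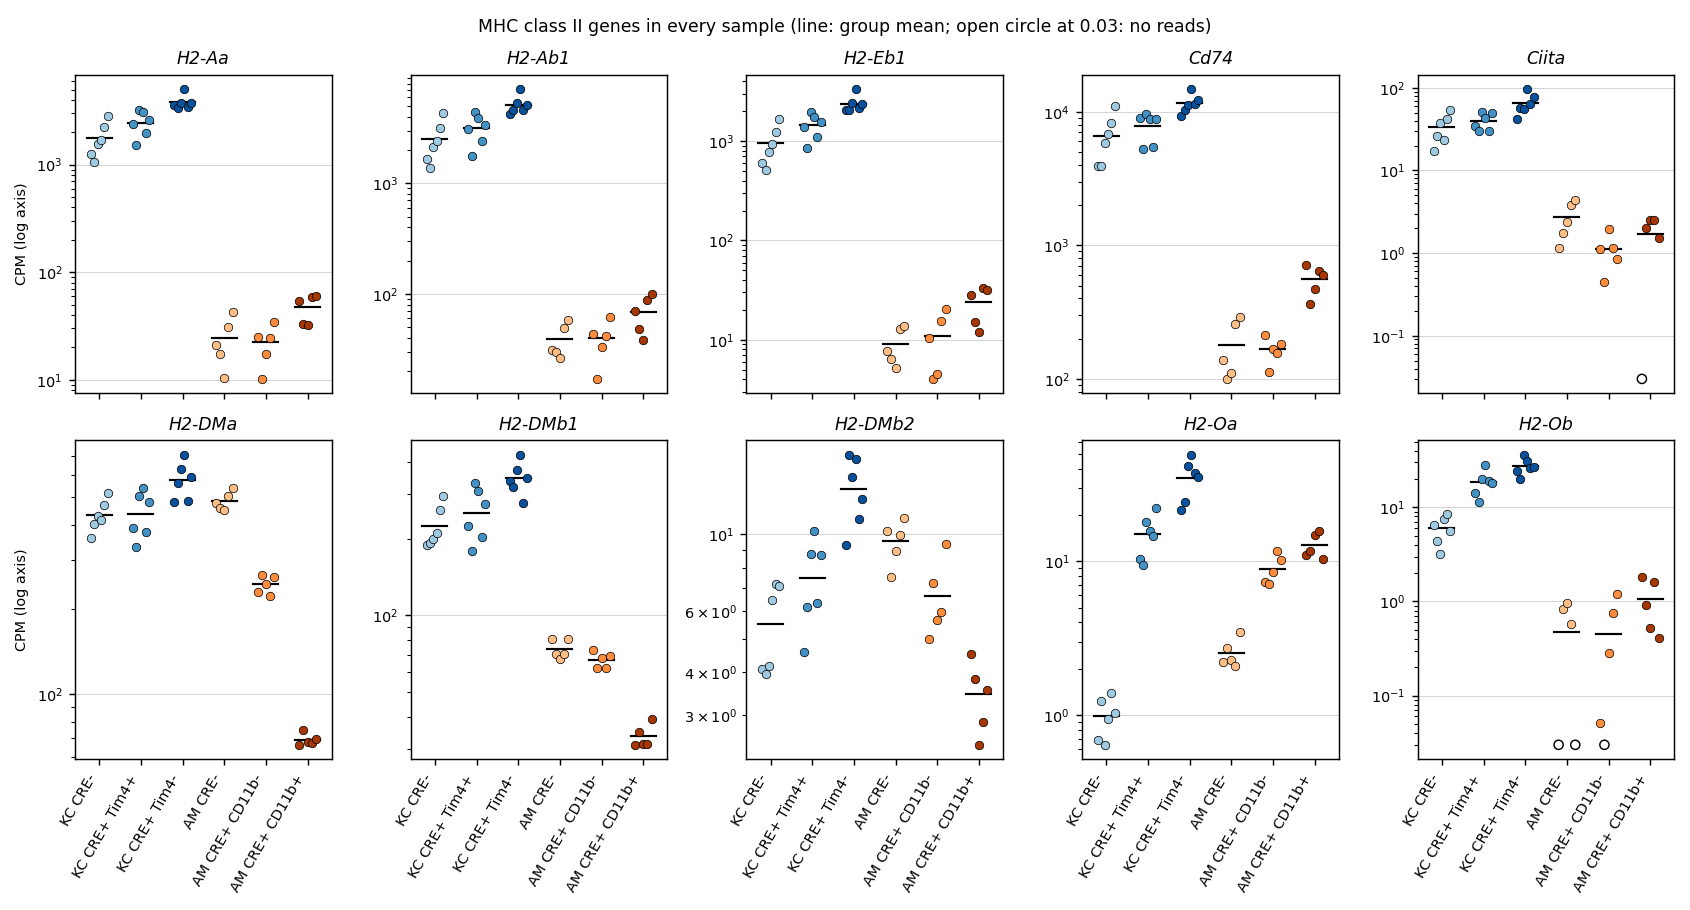
CPM (log axis) of each member in each of the 33 samples, by group, with the group mean as a line and samples without reads as open circles at 0.03. H2-Oa rose from 0.64–1.39 CPM in CRE- KCs to 21.6–49.2 CPM in Tim4- KCs, and H2-DMa fell from 451–538 CPM in CRE- AMs to 66.1–74.6 CPM in CD11b+ AMs.

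The I-A and I-E chains also rose in Tim4- KCs. H2-Aa had 1059.7 to 2828 CPM in CRE- KCs (median 1621), 1512 to 3201 CPM in Tim4+ KCs (median 2516) and 3402 to 5054 CPM in Tim4- KCs (median 3658). Every Tim4- sample lay above every CRE- and every Tim4+ sample, whereas Tim4+ and CRE- KCs overlapped. H2-Aa rose in Tim4- over CRE- KCs by 1.10 on the log2 scale (SE 0.21, edgeR adjusted p = 0.000502), and the Tim4+ difference of 0.46 (SE 0.20) did not pass (edgeR adjusted p = 0.243). Without CRE- KC replicate 2 the log2 fold change in Tim4- KCs was 0.98, under the cut-off.

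H2-Ab1 had 1382 to 4302 CPM in CRE- KCs (median 2292), 1778 to 4415 CPM in Tim4+ KCs (median 3251) and 4244 to 7149.9 CPM in Tim4- KCs (median 4864). Tim4- and CRE- KCs overlapped by 1 sample, the highest CRE- sample, numbered 6. The log2 fold change in Tim4- over CRE- KCs was 1.02 (SE 0.24, edgeR adjusted p = 0.00328), just past the cut-off, and lay between 0.90 and 0.98 without CRE- KC replicate 1, 2 or 3 or Tim4- KC replicate 4.

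For H2-Eb1, CRE- KCs had 515 to 1653 CPM (median 850), Tim4+ KCs 856 to 1964 CPM (median 1484) and Tim4- KCs 2034 to 3340.4 CPM (median 2251). The Tim4- samples lay above all others in the liver. H2-Eb1 rose by a log2 fold change of 1.31 in Tim4- over CRE- KCs (SE 0.24, edgeR adjusted p = 0.000433), and by 0.58 in Tim4+ KCs without passing (edgeR adjusted p = 0.197). H2-Ea-ps, the gene for the missing alpha chain of I-E, had no read in any of the 33 samples, and H2-Eb2 had group means of at most 1.04 CPM.

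CRE- KCs numbered 5 and 6 had the highest levels of H2-Aa, H2-Ab1, H2-Eb1, Cd74, Ciita, H2-DMa, H2-DMb1 and H2-DMb2 in their group. H2-Ab1 had 3162 and 4302 CPM in them and 1382 to 2437 CPM in the other 4, and Cd74 had 8236 and 11058 CPM against 3915 to 6852 CPM. In Tim4+ and Tim4- KCs the highest H2-Aa, H2-Ab1, H2-Eb1 and Cd74 were in samples with other numbers. These are the samples without Xist reads, and the part of sex or of any shared processing in this was not tested. Without all KC samples numbered 5 and 6, the count of members called higher was 8 in Tim4- KCs (8.21% of all genes were called in either direction), with Cd74 at a log2 fold change of 1.15 (edgeR adjusted p = 0.00165) and Ciita at 1.27 (edgeR adjusted p = 0.00368) added. In Tim4+ KCs the count became 3 (1.52% of all genes), with H2-Eb1 at 1.05 (edgeR adjusted p = 0.0277).

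Cd74 and Ciita moved with the chains in the liver but stayed under the fold change cut-off. Cd74 had 3915 to 11058 CPM in CRE- KCs (median 6334), 5226 to 9561 CPM in Tim4+ KCs (median 8860.2) and 9372 to 14805 CPM in Tim4- KCs (median 11400). Its log2 fold change in Tim4- over CRE- KCs was 0.79 (SE 0.22, edgeR adjusted p = 0.011). Ciita had 17.3 to 54.1 CPM in CRE- KCs (median 31.9), 30.2 to 50.7 CPM in Tim4+ KCs (median 38.8) and 42.5 to 96.8 CPM in Tim4- KCs (median 60.5). The groups overlapped for both genes. Its log2 fold change in Tim4- over CRE- KCs was 0.95 (SE 0.24, edgeR adjusted p = 0.00586), and it reached 1.03 to 1.14 without CRE- KC replicate 5 or 6 or Tim4- KC replicate 1. With no fold change cut-off, all 10 members passed in Tim4- over CRE- KCs (25.4% of all genes in either direction), 5 in Tim4- over Tim4+ KCs (11.5%) and 2 in CD11b- over CRE- AMs (25.7%).

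In AMs the chains and Cd74 were lower than in KCs, and which of them was called in CD11b+ cells depended on the gene and the comparison. The CRE- AM samples had 21.0, 17.3, 10.3, 31.0 and 42.6 CPM of H2-Aa, the CD11b- AMs 24.7, 10.2, 17.2, 24.4 and 34.6 CPM, and the CD11b+ AMs 54.2, 33.01, 32.3, 58.9 and 60.4 CPM. The CD11b+ samples overlapped both other groups at their low end. H2-Aa was called higher in CD11b+ than in CD11b- AMs (log2 fold change 1.09, SE 0.33, edgeR adjusted p = 0.0125), a call lost without CD11b- AM replicate 2 or CD11b+ AM replicate 5 (0.91 and 0.99). Against CRE- AMs its log2 fold change of 0.96 stayed under the cut-off (SE 0.32, edgeR adjusted p = 0.0221), and it was 1.05 to 1.25 without CD11b+ AM replicate 2 or 3 or CRE- AM replicate 4 or 5.

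H2-Eb1 had 7.66, 6.36, 5.17, 12.8 and 13.9 CPM in CRE- AMs, 10.3, 4.05, 4.49, 15.3 and 20.4 CPM in CD11b- AMs, and 28.3, 15.02, 12.02, 33.1 and 31.7 CPM in CD11b+ AMs. The ranges overlapped in both comparisons of the CD11b+ cells. H2-Eb1 rose in CD11b+ over CRE- AMs by 1.38 (SE 0.40, edgeR adjusted p = 0.00906). Over CD11b- AMs the log2 fold change was 1.13 (SE 0.40, edgeR adjusted p = 0.0332), a call that did not hold without CD11b- AM replicate 1, 2 or 3 or CD11b+ AM replicate 1, 4 or 5 (edgeR adjusted p from 0.0627 to 0.0834). H2-Ab1, with 26.4 to 57.7, 16.97 to 62.0 and 38.1 to 99.9 CPM in CRE-, CD11b- and CD11b+ AMs, had log2 fold changes of 0.81 and 0.79 in the same comparisons and was called in neither. Without CD11b- AM replicate 5 the latter was 1.02 and called.

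Cd74 separated the CD11b+ AMs in every sample. It had 138, 99.9, 111, 256 and 288 CPM in CRE- AMs, 211, 112, 169, 155 and 183 CPM in CD11b- AMs, and 709.7, 366, 472, 639.7 and 598 CPM in CD11b+ AMs. Cd74 rose in CD11b+ AMs by 1.63 over CRE- AMs (SE 0.26, edgeR adjusted p = 3.22e-05) and by 1.73 over CD11b- AMs (SE 0.26, edgeR adjusted p = 2.9e-05). CD11b- and CRE- AMs differed by a log2 fold change of -0.10 (SE 0.25), with a 95% interval from -0.60 to 0.39.

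Ciita was at the edge of detection in AMs. CRE- AMs had 1.17, 1.76, 2.4, 3.85 and 4.45 CPM, CD11b- AMs 1.12, 0.45, 1.97, 1.16 and 0.844 CPM, and CD11b+ AMs 0, 1.99, 2.52, 2.5 and 1.52 CPM. The groups overlapped, and no comparison among AMs called the gene. Its log2 fold change in CD11b- over CRE- AMs was -1.30 (SE 0.64, edgeR adjusted p = 0.151), and it passed (edgeR adjusted p = 0.0391) without CD11b+ AM replicate 1, the sample with no read on Ciita.

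The H2-M genes went the other way in AMs, and H2-DMa had the largest change. CRE- AMs had 479, 456, 451, 505 and 538 CPM of H2-DMa, CD11b- AMs 231, 266, 246, 224 and 260.2 CPM, and CD11b+ AMs 66.1, 74.6, 67.5, 66.9 and 69.2 CPM. The 3 groups did not overlap. H2-DMa fell in CD11b+ AMs by 2.83 on the log2 scale against CRE- AMs (SE 0.069, edgeR adjusted p = 1.81e-16) and by 1.85 against CD11b- AMs (SE 0.067, edgeR adjusted p = 3.19e-13). In CD11b- against CRE- AMs the log2 fold change was -0.98 (SE 0.065, edgeR adjusted p = 1.09e-09), just under the cut-off, and it was -1.02 to -1.01 without CD11b- AM replicate 2 or 5 or CRE- AM replicate 3. Of its exon length, 10.4% overlaps Brd2 on the opposite strand. Brd2 had log2 fold changes of -0.60 and -0.55 in CD11b- and CD11b+ over CRE- AMs.

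H2-DMb1 had 80.9, 70.8, 67.6, 70.8 and 81.0 CPM in CRE- AMs, 73.2, 62.1, 68.0, 62.0 and 69.4 CPM in CD11b- AMs, and 31.2, 34.9, 31.4, 31.4 and 39.2 CPM in CD11b+ AMs. CD11b+ AMs lay below both other groups in every sample. The gene fell by 1.15 on the log2 scale against CRE- AMs (SE 0.087, edgeR adjusted p = 1.34e-09) and by 1.005 against CD11b- AMs (SE 0.087, edgeR adjusted p = 3.16e-08). The latter lay at the cut-off and did not reach it without CD11b- AM replicate 1, 3 or 5 or CD11b+ AM replicate 1, 3 or 4 (-0.9996 to -0.9735).

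H2-DMb2, the paralog of H2-DMb1, had 10.2, 7.53, 8.96, 9.96 and 11.1 CPM in CRE- AMs, 4.97, 7.24, 5.66, 5.96 and 9.39 CPM in CD11b- AMs, and 4.51, 3.83, 2.47, 2.87 and 3.56 CPM in CD11b+ AMs. The CD11b+ samples were below all others in the lung. H2-DMb2 fell by 1.48 against CRE- AMs (SE 0.22, edgeR adjusted p = 1.33e-05), and its log2 fold change against CD11b- AMs was -0.96 (SE 0.22, edgeR adjusted p = 0.00176), under the cut-off, with -1.08 to -1.002 without CD11b- AM replicate 1 or 3 or CD11b+ AM replicate 1 or 2. The 2 genes share sequence, since 34% of the 35-base words of H2-DMb2 transcripts recur in other genes, 27.6% of all of them in H2-DMb1. How the counting shared such reads limits the values of both genes.

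KCs differed from AMs in these genes. H2-DMa had 359 to 519 CPM in CRE- KCs, 334 to 539.7 CPM in Tim4+ KCs and 481 to 707 CPM in Tim4- KCs, and H2-DMb1 had 189.5 to 295, 178 to 331 and 275 to 425 CPM. The KC groups overlapped for both genes. Their log2 fold changes in Tim4- over CRE- KCs were 0.40 (SE 0.12) and 0.61 (SE 0.15), neither past the cut-off. H2-DMb2 had 3.95 to 7.2 CPM in CRE- KCs, 4.56 to 10.2 CPM in Tim4+ KCs and 9.29 to 16.9 CPM in Tim4- KCs, and it rose in Tim4- KCs by 1.28 (SE 0.23, edgeR adjusted p = 0.00031) without overlap.

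Whether the change in CRE+ cells differed between the tissues was tested as the mean change of both CRE+ KC groups less that of both CRE+ AM groups. With signs kept, this difference was called above 0 for 5 members and below 0 for none (3.5% of 13294 genes were called higher and 4.65% lower). The difference in log2 fold change was 2.47 for H2-Oa (SE 0.30, edgeR adjusted p = 1.36e-07), 2.11 for H2-DMa (SE 0.13, edgeR adjusted p = 7.95e-14) and 1.87 for H2-DMb2 (SE 0.27, edgeR adjusted p = 3.59e-06). H2-Oa rose in both tissues and by more in KCs, whereas H2-DMa and H2-DMb2 fell in CD11b+ AMs and not in KCs. For Ciita the difference was 1.57 (SE 0.47, edgeR adjusted p = 0.0152), and it did not pass without CRE- AM replicate 5 (1.33, edgeR adjusted p = 0.058) or with limma voom (1.98, adjusted p = 0.0958). For H2-DMb1 it was 1.04 (SE 0.16, edgeR adjusted p = 8.81e-06), and it was 0.978 to 0.995 without CRE- KC replicate 1 or 2 or Tim4+ KC replicate 3. H2-Aa, H2-Ab1, H2-Eb1 and Cd74 had differences between -0.25 and 0.38, none of which passed, and H2-Ob did not pass either. CRE+ KCs and CRE+ AMs also differed in CRE driver (Clec4f-cre or Itgax-cre) and in sort marker (Tim4 or CD11b). Tissue, driver, marker and the share of cells that kept Zeb2 cannot be told apart in this test.

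Between the controls, the chains and Cd74 had the largest differences. CRE- KCs were above CRE- AMs by log2 fold changes of 6.73 for H2-Eb1 (SE 0.40, edgeR adjusted p = 1.91e-09), 6.21 for H2-Aa (SE 0.40, edgeR adjusted p = 4.99e-09), 6.05 for H2-Ab1 (SE 0.36, edgeR adjusted p = 1.81e-09) and 5.24 for Cd74 (SE 0.39, edgeR adjusted p = 2.73e-08). Ciita followed at 3.65 (SE 0.38, edgeR adjusted p = 8.89e-07) and H2-DMb1 at 1.62 (SE 0.12, edgeR adjusted p = 2.58e-08). No CRE- KC sample overlapped a CRE- AM sample for these 6 genes. H2-DMa overlapped, with a log2 fold change of -0.14 (SE 0.088, edgeR adjusted p = 0.178). H2-DMb2 was lower in every CRE- KC sample, at -0.77 (SE 0.22, edgeR adjusted p = 0.00701), which was -1.01 and called without the KC samples numbered 5 and 6. Tissue and every step of isolation that differed between liver and lung cannot be told apart here.

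Cd74 lies on chromosome 18 of GRCm38, apart from the cluster of the other chains. Its level relative to H2-Ab1, with 3 other ratios between members of the same sample, was compared because a ratio within a sample needs no scaling between libraries. Of the 28 comparisons of 4 ratios, 15 passed (two-sided exact permutation test over samples, Benjamini-Hochberg adjusted over the 28). The smallest p that the test allows is 0.00216 for 6 against 6 samples, 0.00433 for 6 against 5 and 0.00794 for 5 against 5.

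Per read of H2-Ab1, H2-DMa had the widest range. The mean log2 ratio of H2-DMa to H2-Ab1 was 3.71 ± 0.39 in CRE- AMs, 2.76 ± 0.74 in CD11b- AMs and 0.095 ± 0.61 in CD11b+ AMs (SD, n = 5 each). CD11b+ AMs lay below both other AM groups in every sample, with a 12.3-fold lower ratio than CRE- AMs (exact permutation test, adjusted p = 0.0171) and a 6.32-fold lower ratio than CD11b- AMs (exact permutation test, adjusted p = 0.0171). In KCs the ratio was -2.44 ± 0.44 in CRE-, -2.81 ± 0.25 in Tim4+ and -3.16 ± 0.11 in Tim4- cells (SD, n = 6 each). CRE- KCs were 71.3-fold below CRE- AMs (exact permutation test, adjusted p = 0.0171), with no overlap.

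The log2 ratio of H2-Eb1 to H2-Ab1 was narrow within the KC groups and separated them. It was -1.42 ± 0.044 in CRE-, -1.13 ± 0.044 in Tim4+ and -1.12 ± 0.04 in Tim4- KCs (SD, n = 6 each). Every CRE+ KC sample had a higher ratio than every CRE- KC sample, by 0.29 in Tim4+ and 0.30 in Tim4- cells (exact permutation test, adjusted p = 0.0171 for both), while Tim4- and Tim4+ KCs overlapped (difference 0.013, exact permutation test, adjusted p = 0.654). Without the KC samples numbered 5 and 6 the differences from CRE- KCs were 0.30 and 0.32 (exact permutation test, adjusted p = 0.0616 for both). CD11b+ AMs had -1.54 ± 0.17 and CRE- AMs -2.12 ± 0.16 (SD, n = 5 each), again without overlap (exact permutation test, adjusted p = 0.0171).

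The log2 ratio of Cd74 to H2-Ab1 was 3.07 ± 0.41 in CD11b+ AMs, 2.16 ± 0.45 in CD11b- AMs and 2.13 ± 0.25 in CRE- AMs (SD, n = 5 each). CD11b+ AMs were 1.92-fold above CRE- AMs in this ratio without overlap (exact permutation test, adjusted p = 0.0171). Their 1.88-fold difference from CD11b- AMs passed (exact permutation test, adjusted p = 0.0297) but did not without any one of CD11b- AM replicates 1, 3, 4 and 5 or CD11b+ AM replicates 1, 2, 3 and 4 (adjusted p from 0.0522 to 0.0555). Tim4- KCs lay 1.18-fold below CRE- KCs (1.17 ± 0.10 against 1.40 ± 0.094, SD, n = 6 each, exact permutation test, adjusted p = 0.0171). Without the KC samples numbered 5 and 6 the log2 difference was -0.31 (exact permutation test, adjusted p = 0.0616). That setting leaves fewer samples per KC group. The H2-Eb1 to H2-Ab1 ratios, which did not overlap between CRE+ and CRE- KCs, reached no lower adjusted p there. It therefore cannot tell whether the difference depends on those samples.

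H2-DMb2 made up 2.37 ± 0.39% of the reads on H2-DMb1 and H2-DMb2 in CRE- KCs, 2.88 ± 0.51% in Tim4+ KCs and 3.78 ± 0.76% in Tim4- KCs (SD, n = 6 each), and 11.4 ± 1.08% in CRE- AMs (SD, n = 5). Tim4- KCs were above CRE- KCs by 1.41 percentage points (exact permutation test, adjusted p = 0.0171) and CRE- KCs below CRE- AMs by 9.03 points (exact permutation test, adjusted p = 0.0171). Without the KC samples numbered 5 and 6, Tim4- KCs were above CRE- KCs by 1.53 points (exact permutation test, adjusted p = 0.0999). The share in CD11b- and CD11b+ AMs, 9.03 ± 2.2% and 9.3 ± 2.09%, overlapped that of CRE- AMs.

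**Figure D4:**
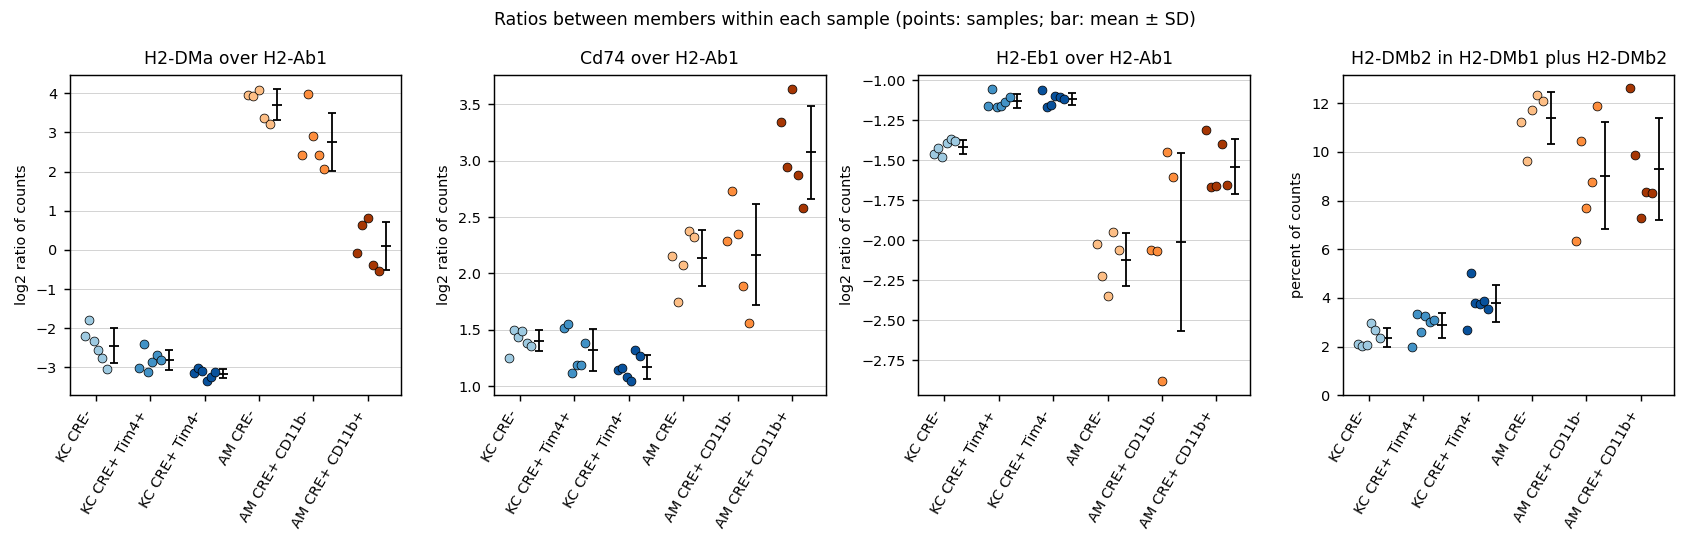
Ratios between members in each sample by group (points), with the mean ± SD beside them; the first 3 panels give log2 ratios of counts and the last a percent of counts. The ratio of H2-DMa to H2-Ab1 fell from a mean of 3.71 in CRE- AMs to 0.095 in CD11b+ AMs, and that of H2-Eb1 to H2-Ab1 was above every CRE- KC sample in all CRE+ KC samples.

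When the 6 groups were ordered by mean level for each member in a fit of all 33 samples, 21 of 50 pairs of neighbours differed (edgeR adjusted p under 0.05 and no fold change cut-off). Tim4- KCs stood first for all 10 members. For H2-Aa, H2-Ab1, H2-Eb1, Cd74 and Ciita the 3 KC groups came first and did not differ from their neighbours among themselves in this unpaired fit, and the step from CRE- KCs down to the next AM group differed for each. In a fit of the KC samples alone, the sample numbers served as a block, which pairs Tim4- and Tim4+ KCs. There these 5 genes did differ between Tim4- and Tim4+ KCs, with no fold change cut-off. Their log2 fold changes ran from 0.58 (Cd74) to 0.76 (H2-Eb1) and edgeR adjusted p from 0.0096 (H2-Aa) to 0.0346 (Cd74). With the fold change cut-off, the block called 716 of 12500 genes between these groups. This KC fit differs from the fit of all 33 samples in more than the block. For H2-DMa and H2-DMb2, CRE- AMs came second, below Tim4- KCs (log2 difference 0.27 and 0.52, both past the threshold), and CD11b+ AMs last. H2-Oa alone had CRE- KCs in last place, below CRE- AMs. In the fit of all 33 samples, the share of all 13294 genes that differed was 6.95% between CRE- and Tim4+ KCs and 13.1% between Tim4- and Tim4+ KCs. It was 16.6% between CD11b- and CRE- AMs, 26.7% between CD11b- and CD11b+ AMs and 34.2% between CD11b+ and CRE- AMs. Across the tissues it was 61.5% for CRE- KCs against CRE- AMs, 65.6% and 64.9% for CRE- KCs against CD11b- and CD11b+ AMs, 63%, 62.6% and 61.2% for Tim4+ KCs against CD11b-, CD11b+ and CRE- AMs, and 60.6% for Tim4- KCs against CRE- AMs.

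Within groups, the chains and Cd74 varied together. As deviations from group means on the log2 CPM scale, H2-Aa, H2-Ab1, H2-Eb1 and Cd74 correlated with r from 0.944 to 0.996 over the 18 KC samples and from 0.689 to 0.932 over the 15 AM samples. Ciita correlated with these 4 with r from 0.774 to 0.825 in KCs and from -0.056 to 0.086 in AMs, where its counts were low, and H2-DMa with r from 0.773 to 0.852 and from 0.024 to 0.216. The points share library and depth, and these values are a description. Among 8104 genes with a mean log2 CPM of at least 3, the 5 most like the mean of the 4 genes over the 33 samples, outside the gene lists, were Rab3il1 (r = 0.64), Ppt1 (0.619), Bin1 (0.616), Nrros (0.612) and Lamp1 (0.61).

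Other genes of the pathway were read from lists, in the same fits. The 7 genes of the promoter complex that Ciita binds (Rfx5, Rfxap, Rfxank, Nfya, Nfyb, Nfyc and Creb1) were called in no comparison, with list medians from -0.16 to 0.29 on the log2 scale. Of 12 genes that act upstream of Ciita, none was called in KCs of CRE+ mice, nor in CD11b- AMs. In CD11b+ over CRE- AMs, Jak2, a kinase of the interferon gamma receptor, rose by 1.32, Socs1, an inhibitor of that signal, by 2.23, and Prdm1, a repressor of Ciita, fell by 1.25. CRE- KCs had 6 of the 12 higher and 1 lower than CRE- AMs. Irf1 (log2 fold change 3.60), Irf4 (2.35), Socs1 (2.101), Ifngr1 (1.95) and Irf8 (1.08) were among those higher, and Prdm1 (-1.88) was lower.

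The 9 genes induced by interferon gamma were all higher in CRE- KCs than in CRE- AMs, with a median log2 fold change of 3.87 and values such as 2.34 for Gbp2 and 5.29 for Cxcl9. None was called in either CRE+ KC group or in CD11b- AMs, and Gbp3 (1.15) and Iigp1 (mean levels 0.851 and 0.126 CPM) were called higher in CD11b+ than in CRE- AMs. Among 8 genes of antigen processing, Lgmn, a lysosomal protease, rose by 1.76 in CD11b+ over CRE- AMs, and none was called in the CRE+ KC groups. CRE- KCs had Lgmn (3.86), Ctsb (2.49) and Ctsh (1.54) higher and Ctsd (-1.49) lower than CRE- AMs.

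Of 6 costimulation and checkpoint ligands, Icosl rose in Tim4- KCs by 1.19, and Cd86 rose in CD11b+ AMs by 1.16 over CRE- AMs. Cd40, a receptor through which T cells activate the presenting cell, had mean levels of 0.057, 0.183 and 2.7 CPM in CRE-, CD11b- and CD11b+ AMs and 44.5 CPM in CRE- KCs, and was called higher in CD11b+ AMs. CRE- KCs had Cd86 (5.50) and Cd40 higher and Cd274 (-1.22) and Pdcd1lg2 (-2.15) lower than CRE- AMs. Cd83, which protects surface class II from the ubiquitin ligase March1, rose by 1.38 in CD11b+ over CRE- AMs. March1 (1.76) and Il10ra (1.85) were higher in CRE- KCs than in CRE- AMs. The Cd74 ligands Mif and Ddt and its partner Cd44 were called in no comparison.

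**Figure D5:**
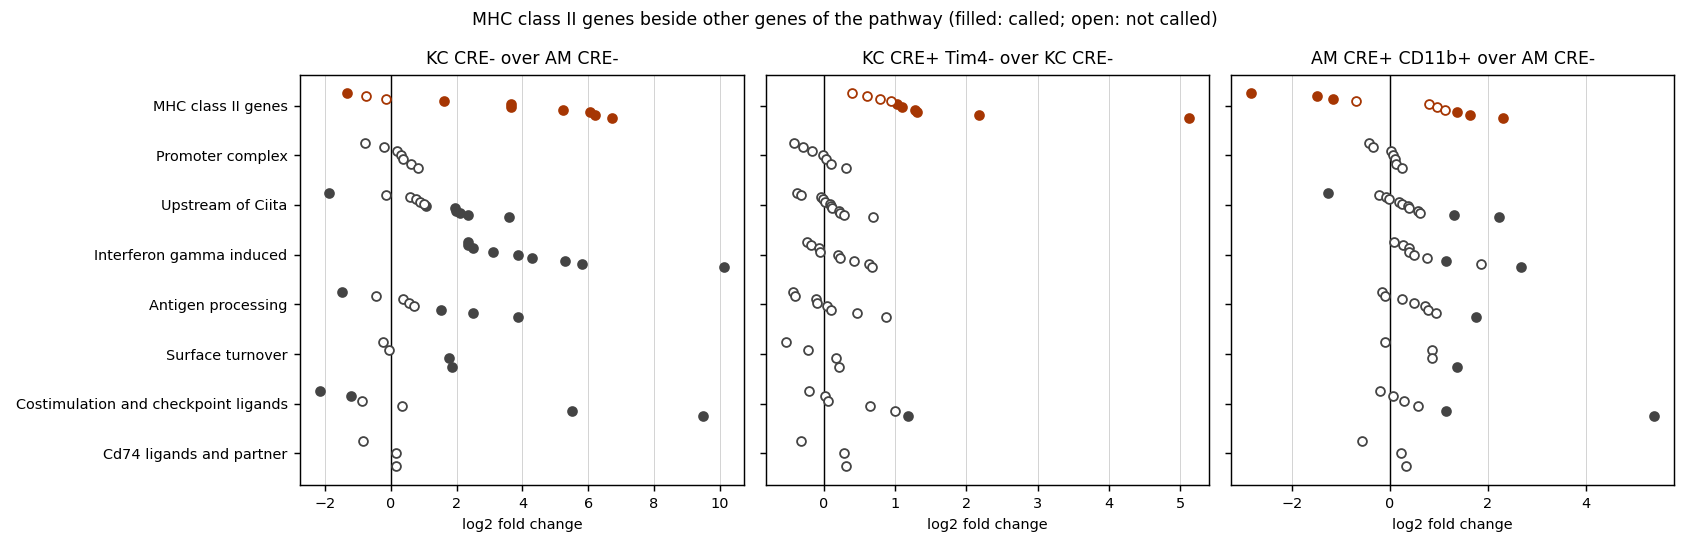
Log2 fold change of the MHC class II genes (top row) and of the other genes of the pathway by list, in CRE- KCs over CRE- AMs (left), Tim4- over CRE- KCs (middle) and CD11b+ over CRE- AMs (right); filled points were called. Of 7 promoter complex genes none was called in any panel, while all 9 interferon gamma induced genes were higher in CRE- KCs than in CRE- AMs.

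Genes from lists of other cell types moved with some of these groups. In Tim4- KCs the 6 monocyte genes summed to 360–867 CPM, against 83.8–309 in CRE- and 112–370 CPM in Tim4+ KCs, and the 7 liver endothelial genes to 319–465 CPM, against 587–1680 and 950–2720 CPM. The 8 dendritic cell genes summed to 110–154 CPM in CRE-, 151–210 in Tim4+ and 148–189 CPM in Tim4- KCs. Most of this sum came from Wdfy4 (91.4 to 133 CPM in CRE- KCs), which had 153 to 158 CPM in CRE- AMs as well. Of the 8 dendritic cell genes, 3 were called higher and none lower in Tim4- over CRE- KCs (3.43% and 5.39% of all genes). None was called in Tim4+ over CRE- KCs. Their median log2 fold changes were 0.67 and 0.47. In CD11b+ AMs the monocyte genes summed to 90.9–295 CPM (6.03–11.1 in CRE- and 12.6–25.5 in CD11b- AMs) and the 5 neutrophil genes to 7830–10100 CPM (6.65–9.8 and 716–2300 CPM). Most of the neutrophil sum came from S100a8 (4098 to 5235 CPM), S100a9 (3223 to 4254 CPM) and Cxcr2 (502 to 646 CPM). Retnlg had 1.59 to 4.73 CPM and Mmp9 8.35 to 20.5 CPM in CD11b+ AMs, against at most 0.152 and 0.0507 CPM in CD11b- AMs. All 5 were called higher in CD11b+ than in CRE- AMs. The 8 lung epithelial genes summed to 870–975 CPM in CD11b+ AMs (116–154 and 447–539 CPM) and the dendritic cell genes to 178–203 CPM (159–165 and 146–183 CPM). Most of the lung epithelial sum came from Epcam (481 to 546 CPM in CD11b+ against 11.4 to 21.1 CPM in CRE- AMs), which the study also used to identify Zeb2-/- macrophages, and Cdh1 (310 to 395 against 74.4 to 114 CPM), whereas Sftpb had at most 0.976 CPM and Scgb1a1 at most 11.6 CPM in CD11b+ AMs. Of the defining dendritic cell genes, Flt3 had at most 2.39 CPM and Zbtb46 3.15 to 8.23 CPM in CD11b+ AMs, against at most 0.587 and 0.358 CPM in CRE- AMs. In this comparison 3 of the 8 dendritic cell genes were called higher and none lower (9.57% and 5.68% of all genes). The part of these cells in the rise of the chains and Cd74 or in the fall of the H2-M genes was not tested.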

How the data were processed

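RNA was sequenced in bulk from 33 sorted samples in 6 groups, assigned from the sample labels. The authors deposited, for each sample, raw counts of reads per gene made with HTSeq-count. The submitters' processing notes name FastQC 0.11.4, Trimmomatic 0.35, TopHat2 2.1.0, SAMtools 0.1.18 and the build mm10, and the strand setting and the annotation of the counting are not given in the sources used here. The 5 tally rows that name no gene were left out of library sizes and tests (reads on no feature came to 4.52 to 8.90% and ambiguous reads to 1.19 to 1.39%). CPM are counts scaled to the gene reads of the library, and RPKM divides CPM by the exon length of GENCODE M21 (GRCm38).

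Genes were filtered with filterByExpr, scaled by TMM and tested by quasi-likelihood in edgeR 4.0.16 (R 4.3.3), with the 3 groups of a tissue in 1 fit, both CRE- groups for the controls and all 33 samples for the difference between tissues. P-values were adjusted by Benjamini-Hochberg over all genes tested. Ratios within a sample were compared by exact permutation in SciPy 1.17.1, with NumPy 2.4.6, pandas 2.3.3 and Python 3.11.15. The fits were tested on simulated data. Alternatives used DESeq2 1.42.0, limma 3.58.1, RLE factors, 2 other filters, other samples in the fit, the replicate number as a block, and libraries left out. Of the comparisons within a tissue, only Tim4- against Tim4+ KCs had every same-numbered pair deviating together with r over 0.1 (0.11 to 0.25 over 6 pairs). The numbers of the titles were therefore taken to pair these samples. Every pair also had r above 0, but under 0.1, in CD11b+ against CD11b- AMs (0.052 to 0.099) and against CRE- AMs (0.038 to 0.087). The main edgeR fits and the ratio tests used no pairing. The KC block also grouped the CRE- KCs of the same number, whose r with CRE+ KCs ran from -0.072 to 0.21. No 2 samples of a group agreed within counting noise (chi-square per gene at least 12.8 over 75 pairs).

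The 10 members were named in every comparison, pathway genes where called or as examples, and the 5 genes most alike by correlation. Members and lists were chosen with earlier results of these data known. Single values of some list genes are not reported here. Depth of 9837240 to 24332306 gene reads limits H2-Ob and Ciita in AMs, and intervals and floors cover counting error only.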

Additional observations from a re-analysis of the deposited data

Results flagged for a closer look

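For each member in each group, 60 sets of samples in all, the highest and lowest sample were set against the others by Dixon's test, and 3 stood apart, where chance flags about 1 in 20. Tim4- KC replicate 4 had the highest H2-Aa, 5050 CPM against 3400 to 3770 CPM in the other samples of its group, and the highest H2-Eb1, 3340 against 2030 to 2400 CPM. CD11b+ AM replicate 1 had 0 CPM of Ciita against 1.52 to 2.52 CPM in the others.

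The change in CRE+ cells differed between KCs and AMs for 5 members in the edgeR test of the difference itself, in which tissue, CRE driver and sort marker cannot be told apart. The KC change less the AM change was 2.47 for H2-Oa, 2.11 for H2-DMa, 1.87 for H2-DMb2, 1.57 for Ciita and 1.04 for H2-DMb1 on the log2 scale.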

How the results depend on the processing

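Of the members' log2 fold changes with libraries left out in turn, 1391 stayed called or not called as before, 16 passed newly and 23 no longer passed. Under the other alternatives the numbers were 708, 21 and 2, and none was called in the opposite direction. Changes of sign among values that were not called were not counted. The counts of members called, with each library left out, ranged from 2 to 2 in Tim4+ and 4 to 7 in Tim4- over CRE- KCs, 1 to 1 in Tim4- over Tim4+ KCs, 1 to 2 in CD11b- and 6 to 7 in CD11b+ over CRE- AMs, 3 to 6 in CD11b+ over CD11b- AMs, 8 to 8 between the controls and 4 to 5 for the difference between tissues. The ratios that passed ranged from 14 to 17. With no fold change cut-off, 10 members passed in Tim4- over CRE- KCs, 5 in Tim4- over Tim4+ KCs and 2 in CD11b- over CRE- AMs, since this alternative drops a criterion. Without the KC samples numbered 5 and 6, 9 of 28 ratios passed, fewer samples per KC group being left. The 6 that no longer passed were all the comparisons between KC groups that had passed, with or without overlap.

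With the replicate block, the counts of members called were 2, 6 and 1 in the KC comparisons, in the order above, 1, 7 and 5 in the AM comparisons, 8 between the controls and 5 for the difference between tissues. Over all genes, in the same order, the block called 308, 1139 and 716 of 12500, 745, 1789 and 1184 of 11573, 4034 of 12145 and 1117 of 13294. H2-Aa in CD11b+ over CRE- AMs (1.04, edgeR adjusted p = 9.47e-05) was the one call of a member, with the fold change cut-off, that the block changed. Depth limits H2-Ob and Ciita in AMs, which had samples with 0 reads, and overlapping antisense genes and the likeness of H2-DMb1 and H2-DMb2 limit those genes in every sample.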
